A study of Mus musculus with 3 samples.

Results

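Transcripts of tumor necrosis factor (TNF), its receptors and the NF-κB genes that TNF switches on were measured in whole lung from 3 mice. The 10 genes were taken by name, Tnf, Tnfrsf1a, Tnfrsf1b, Tnfaip2, Tnfaip3, Traf1, Birc3, Nfkbia, Nfkb1 and Relb, from a table of 53342 genes, and all 10 were found in it. The mice were male C57Bl/6 animals that form 1 group. All 3 had been challenged through the trachea with 50 µL of Mycobacterium abscessus microparticles, equivalent to 1000000 bacteria, so that granulomas would develop. MIA-602 followed for 3 weeks at 5 µg per day, placed under the skin. This peptide blocks the receptor for growth hormone-releasing hormone, and the series concerns its activity in a model of sarcoidosis, a disease of granulomas. Every mouse carried both the challenge and the drug, so the levels below belong to treated lungs and no effect of either can be read from them. Lungs without the challenge or without the drug were not analysed here.

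The animals are called mouse 4, 5 and 6 after the last digit of their labels, and all values are given in that order. Their libraries held 43845715, 35674761 and 31579465 counts. Levels are library-size normalised counts (CPM) scaled with TMM factors, and levels of different genes are compared only as CPM per kilobase of exon. Ager, which marks alveolar type 1 cells of the lung, stood at 1809, 2416 and 1683 CPM. Mouse 4 stood apart in several marker sums. Its 4 skeletal muscle markers summed to 4185 CPM, against 1524 and 1311 CPM in mice 5 and 6, and its 3 club cell markers to 8953 CPM, against 24443 and 21641 CPM. The part of these differences in the levels of the 10 genes was not tested.

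TNF is a cytokine of activated macrophages and T cells that is needed to build and hold together granulomas in mycobacterial disease, and antibodies to it are used in sarcoidosis. It is made as a membrane protein, is cut free by the protease ADAM17, and acts through TNFR1 (Tnfrsf1a), which most cells carry, and TNFR2 (Tnfrsf1b), found mainly on leukocytes and endothelium. Both receptors free NF-κB from its inhibitors. NF-κB then induces its own brakes, among them IκBα (Nfkbia), which binds NF-κB and carries it out of the nucleus, and A20 (Tnfaip3), which edits ubiquitin chains on the receptor complex.

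Tnf itself was lower in mouse 5 than in the other 2 lungs. The gene (ENSMUSG00000024401, mm10 chromosome 17, 35199381 to 35202007, minus strand) had 1852, 975 and 1314 counts in mice 4, 5 and 6. These correspond to 43.0, 27.0 and 41.4 CPM, a mean of 37.1 ± 8.84 CPM (SD, n = 3). Exact 95% Poisson intervals ran from 41.1 to 45.0 CPM in mouse 4, from 25.3 to 28.7 CPM in mouse 5 and from 39.2 to 43.7 CPM in mouse 6, so mice 4 and 6 overlapped and mouse 5 lay below both. The intervals cover counting error only. The spread of Tnf between mice exceeded counting noise (edgeR Poisson goodness of fit, Benjamini-Hochberg adjusted p = 2.53e-35), and without mouse 5 it did not (adjusted p = 0.446).

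The mRNA of Tnf is short-lived, and its 3′ untranslated region carries the AU-rich sequence that tristetraprolin, the product of Zfp36, binds to hasten decay. The 30-base stretch of that region with the most copies of the nonamer TTATTTATT is shown as an example of such a sequence. It lies at chr17:35199681-35199710 on the minus strand (mm10), at bases 435 to 464 of the 764-base region, and reads, in DNA letters with the 4 overlapping nonamers in capitals:

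Tnf 3′ element: ttaTTATTTATTATTTATTTATTATTTATT

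The whole region held 5 nonamers and 8 copies of the pentamer ATTTA, which the nonamer contains. Tnfaip3, Birc3 and Nfkbia held 1 nonamer each and the other 6 genes none. Of 21153 coding genes, 6.97% held at least 1. A match describes the letters and does not show a decay rate. Zfp36 stood at 189, 144 and 169 CPM in mice 4, 5 and 6 and was likewise lowest in mouse 5.

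**Figure D1:**
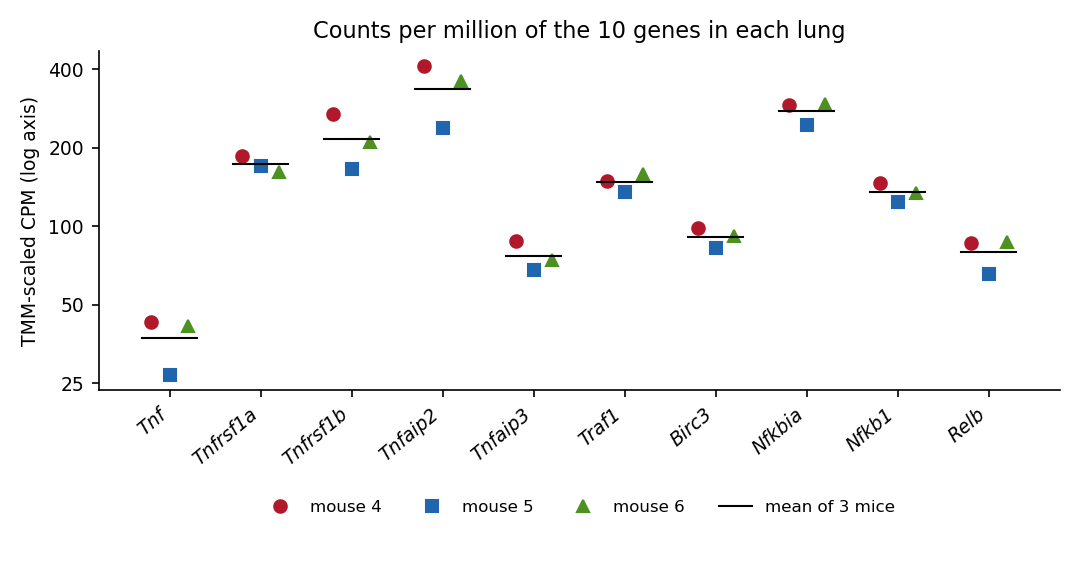
TMM-scaled CPM (log axis) of the 10 genes in the lungs of mice 4, 5 and 6, with 1 point per mouse and a line at the mean. Mouse 5 is the lowest point for 9 of the 10 genes, Tnfrsf1a being the exception. Tnf lies at 27.0 to 43.0 CPM, and levels of different genes are not compared on this axis.

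The 2 receptors differed in how much they varied. Tnfrsf1a (ENSMUSG00000030341, chromosome 6, 125349362 to 125362484, plus strand), whose protein carries a death domain and can signal for cell death as well as NF-κB, had 186, 170 and 162 CPM in mice 4, 5 and 6. These lie within 1.15-fold of each other, the narrowest range of the 10 genes. Tnfrsf1b (ENSMUSG00000028599, chromosome 4, 145213463 to 145246870, minus strand), whose protein has no death domain and binds TRAF2, had 270, 165 and 210 CPM, a 1.64-fold range. Tnfrsf1a was the only gene of the 10 that was lowest in mouse 6 and not in mouse 5.

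Per kilobase of exon, the receptors were at like levels in mouse 4 and apart in mouse 5. Tnfrsf1b had 0.989, 0.658 and 0.879 times the level of Tnfrsf1a in mice 4, 5 and 6. The mean difference, Tnfrsf1b minus Tnfrsf1a, was −0.27 ± 0.30 on the log2(CPM per kb + 0.5) scale (SD, n = 3), with Tnfrsf1b below Tnfrsf1a in 3 of 3 mice. An exact sign-flip test over the mice (two-sided) had p = 0.25, the smallest that 3 mice allow. Without division by length the sign turned, to 0.29. Per kilobase of the longest transcript the difference was −0.53, and Tnfrsf1b at 43.3 to 70.8 CPM per kb lay below Tnfrsf1a at 75.1 to 86.0 with no overlap, so the near-equality in mouse 4 rests on the union of exons.

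Of the brakes, Nfkbia was by far the more abundant transcript. Nfkbia (ENSMUSG00000021025, chromosome 12, 55489410 to 55492647, minus strand) had 291, 245 and 295 CPM in mice 4, 5 and 6, or 172 ± 17.4 CPM per kb (SD, n = 3), the highest of the 10 genes. That level lay above 98.4% of the protein-coding genes tested. Tnfaip3 (ENSMUSG00000019850, chromosome 10, 19000910 to 19015657, minus strand) had 88.1, 67.7 and 74.5 CPM, or 10.6 ± 1.44 CPM per kb, above 68.2% of coding genes. Mice 4 and 6 were alike for Nfkbia, whereas for Tnfaip3 mouse 4 lay above both others.

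Nfkbib, which encodes IκBβ, an inhibitor that is less readily induced by NF-κB, gave a scale for Nfkbia. Nfkbia stood at 6.57, 6.62 and 6.97 times the level of Nfkbib per kilobase in mice 4, 5 and 6. The difference, Nfkbia minus Nfkbib, was 2.72 ± 0.05 on the log2 scale (SD, n = 3), positive in 3 of 3 mice (exact two-sided sign-flip p = 0.25, the smallest possible). This ratio moved little between the lungs, although both genes were lowest in mouse 5.

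The start regions of Nfkbia, Tnfaip3 and Tnfaip2 are shown because these were the windows among the 10 genes that held a κB-type match, the kind of site that Rel proteins bind. RefSeq windows of GRCm38.p6, from 250 bases before to 50 after each annotated start, were on hand for 8 of the 10 genes, in 9 windows. They were searched on both strands for the 10-base κB consensus and for the 9-base pattern GGNNTTTCC, which can overlap it. Matches are in capitals, and each sequence runs 5′ to 3′ on the gene's own strand. The Nfkbia window is chr12:55492598-55492897, that of Tnfaip3 chr10:19015361-19015660 and that of Tnfaip2 chr12:111442411-111442710.

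Nfkbia: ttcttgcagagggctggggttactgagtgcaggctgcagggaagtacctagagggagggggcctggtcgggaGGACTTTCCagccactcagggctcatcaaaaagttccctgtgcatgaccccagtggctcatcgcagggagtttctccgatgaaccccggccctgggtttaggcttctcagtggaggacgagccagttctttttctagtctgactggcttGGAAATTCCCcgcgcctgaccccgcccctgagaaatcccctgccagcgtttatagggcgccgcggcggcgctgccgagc
Tnfaip3: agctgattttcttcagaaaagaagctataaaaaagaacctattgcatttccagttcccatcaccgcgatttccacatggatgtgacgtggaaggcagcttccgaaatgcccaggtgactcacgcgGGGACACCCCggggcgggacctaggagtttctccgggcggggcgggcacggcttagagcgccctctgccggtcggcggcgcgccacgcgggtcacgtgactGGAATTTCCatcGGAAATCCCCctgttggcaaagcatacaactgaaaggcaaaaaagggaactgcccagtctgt
Tnfaip2: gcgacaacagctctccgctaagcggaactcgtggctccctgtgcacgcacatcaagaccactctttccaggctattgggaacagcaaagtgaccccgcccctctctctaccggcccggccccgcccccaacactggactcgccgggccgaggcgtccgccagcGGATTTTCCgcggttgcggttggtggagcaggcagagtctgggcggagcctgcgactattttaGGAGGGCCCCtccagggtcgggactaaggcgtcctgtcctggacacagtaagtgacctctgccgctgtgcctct

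In Nfkbia the pattern GGNNTTTCC matched at bases −178 to −170 from the start, and a consensus match at −29 to −20 contained a further copy. In Tnfaip3, GGNNTTTCC matched at −24 to −16, a consensus match at −12 to −3 contained a further copy, and another consensus match lay at −125 to −116. In Tnfaip2, GGNNTTTCC matched at −87 to −79 and the consensus at −24 to −15. The other 6 windows, those of Tnf and both receptors among them, held neither. Either pattern was found in 3 of the 9 windows (33.3%), in 25 of 76 windows of other pathway genes (32.9%) and in 12.8% of all 32851 windows. Searches of so short a window say nothing of sites elsewhere, and a match is not evidence of binding in these lungs.

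Tnfaip2 had the widest range of the 10, taken as highest over lowest mouse. This gene (ENSMUSG00000021281, chromosome 12, 111442469 to 111455018, plus strand), first found as a TNF-induced transcript of endothelium, had 411, 239 and 360 CPM in mice 4, 5 and 6. Mouse 5 was low and mouse 4 1.72-fold above it. An antisense transcript, Gm40578, shares 314 exon bases with it on the other strand. It had 6, 2 and 1 counts, where Tnfaip2 had 8633 or more. How reads in the shared bases were counted is not given, so their part in the level of Tnfaip2 was not tested.

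The adaptor and survival genes were steadier. Traf1 (ENSMUSG00000026875, chromosome 2, 34941750 to 34961772, minus strand), an inducible adaptor that joins TRAF2 at TNFR2, had 149, 135 and 158 CPM in mice 4, 5 and 6. Birc3 (ENSMUSG00000032000, chromosome 9, 7848699 to 7873186, minus strand) encodes cIAP2, a ubiquitin ligase that keeps receptor complex kinases from starting cell death, and had 98.1, 82.2 and 91.8 CPM. Mouse 5 was again the lowest for both, within 1.17-fold and 1.19-fold of the highest lung.

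Birc3 lies 11634 bases from Birc2, its constitutive relative cIAP1, with no other coding gene between them. Per kilobase of exon the pair stood close together, with Birc3 at 1.04, 1.02 and 0.949 times Birc2 in mice 4, 5 and 6. The difference, Birc3 minus Birc2, was 0.01 ± 0.07 on the log2 scale (SD, n = 3, exact two-sided sign-flip p = 1), and its sign depended on which mouse was left out. Over the longest transcript the difference was 0.33, so the near-equality rests on the length used. The sources used here do not say how reads that match both genes were counted.

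Both NF-κB subunit genes were lowest in mouse 5. Nfkb1 (ENSMUSG00000028163, chromosome 3, 135584655 to 135691547, minus strand), whose product p105 is both an inhibitor and the precursor of the p50 subunit, had 146, 124 and 134 CPM in mice 4, 5 and 6. Relb (ENSMUSG00000002983, chromosome 7, 19606217 to 19629438, minus strand), the subunit of the noncanonical branch, had 86.2, 65.3 and 86.6 CPM. For Relb, mice 4 and 6 agreed within counting noise (adjusted p = 0.910 without mouse 5), and mouse 5 was lower.

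Relb was below Rela, the canonical p65 subunit, in every lung. Per kilobase it stood at 0.417, 0.360 and 0.443 times Rela in mice 4, 5 and 6. Relb minus Rela was −1.28 ± 0.15 on the log2 scale (SD, n = 3, lower in 3 of 3 mice, exact two-sided sign-flip p = 0.25, the smallest possible). The sign was the same under every alternative tried.

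Taken per kilobase of exon, the 10 genes lay in 4 bands with gaps between them. Nfkbia alone lay at 152 to 183 CPM per kb. Tnfaip2 (67.5 ± 17.7), Tnfrsf1a (66.6 ± 4.60) and Tnfrsf1b (56.3 ± 13.8 CPM per kb, SD, n = 3) overlapped in range and formed the second band. In the third, the ranges of Tnf (22.65 ± 5.39), Relb (20.4 ± 3.13), Birc3 (18.1 ± 1.59) and Traf1 (16.7 ± 1.32) overlapped from each to the next. In the lowest, Nfkb1 (11.2 ± 0.925) and Tnfaip3 (10.6 ± 1.44 CPM per kb) overlapped each other.

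This order depended on the length used. Per kilobase of the longest transcript the second band split, since Tnfrsf1a no longer overlapped Tnfrsf1b, and the gap under it closed, since Tnfrsf1b overlapped Traf1 at 39.4 to 46.1 CPM per kb. The union of exons of Nfkb1 is 12061 bases and its longest transcript 4149, and for Traf1 these are 8819 and 3436. Per kilobase of the longest transcript, Traf1, Nfkb1 and Birc3 reached 42.9 ± 3.39, 32.5 ± 2.69 and 31.2 ± 2.74 CPM per kb (SD, n = 3), with ranges above that of Tnf at 22.65. Relb, at 24.25 ± 3.72 CPM per kb, had a higher mean than Tnf with overlapping range. Nfkbia stayed first and Tnfaip3 last under both measures. The median of the 10 genes was 4.44 ± 0.30 on the log2(CPM per kb + 0.5) scale, against 2.30 ± 0.01 for all 17636 genes tested.

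**Figure D2:**
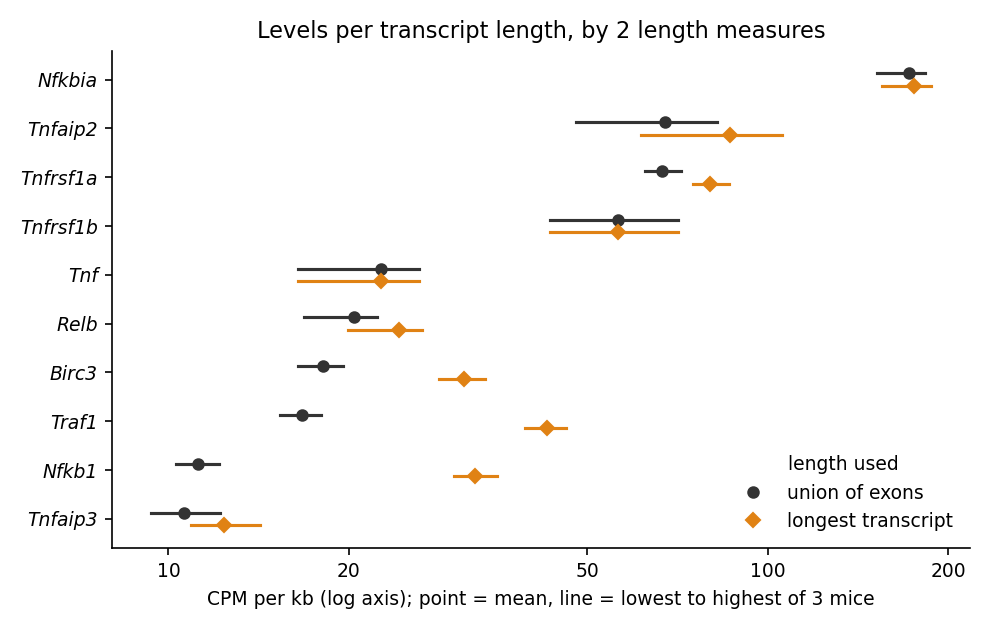
Mean level (points) and range over 3 mice (lines) of the 10 genes in CPM per kb (log axis), divided by the union of exons (dark circles) or by the longest transcript (orange diamonds). Nfkbia, at 152 to 183 per kb of exon, lies above the other 9 by either length, whereas Traf1, Nfkb1 and Birc3 move above Tnf by the longest transcript.

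Mouse 5 was lowest for 9 of the 10 genes, whereas 36.8% of all genes tested were lowest in that mouse. Mouse 6 was lowest for 1, against 29.9% of all genes, and mouse 5 was highest for 0, against 36.4%. Mouse 4 was highest for 7 and mouse 6 for 3, against 33.4% and 30.2% of all genes tested. The order mouse 4, mouse 6, mouse 5 held for 6 of the 10 and for 19.7% of all genes. The median log2 ratio of mouse 4 to mouse 5 was 0.315 over the 10 genes and 0.003 over all genes tested. This is a description of 3 animals that share 1 label, and genes of 1 lung are not independent of each other.

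Several cell marker sums were also lowest in mouse 5. The 6 macrophage markers, led by C1qa and C1qb, summed to 2144, 1290.1 and 1633 CPM in mice 4, 5 and 6, and all 6 were highest in mouse 4 and lowest in mouse 5. The 5 T cell markers summed to 234, 167 and 265 CPM and the 4 B cell markers to 266, 197 and 301 CPM. Each sum was lowest in mouse 5. The 4 dendritic cell markers, at 136, 107 and 147 CPM, were also lowest there by sum, and 3 of the 4 by gene. The 4 monocyte markers, at 303, 250 and 264 CPM, were lowest there by sum, and 2 of the 4 by gene. The 4 NK cell markers summed to 56.3, 66.6 and 71.6 CPM, lowest in mouse 4. The 4 endothelial markers were highest in mouse 5, at 1018, 1414 and 1036 CPM. The same held for the 4 alveolar type 1 markers, at 2523, 3520 and 2399 CPM. The 5 neutrophil markers, at 269, 235 and 177 CPM, were lowest in mouse 6. The 5 alveolar macrophage markers did not follow the macrophage sum, at 453, 502 and 520 CPM in mice 4, 5 and 6, with 3 lowest in mouse 4 and 1 in mouse 5. All 3 erythroid markers were highest in mouse 5, with sums of 1107, 2406 and 1275 CPM, and all 3 cardiac muscle markers were lowest there, with sums of 134, 63.1 and 195 CPM. In bulk tissue fewer cells of a type and less RNA per cell cannot be told apart, and the part of cell content in these differences was not tested.

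The levels were also set against the summed macrophage markers, a scale chosen after the values were seen. This divides every gene of a mouse by the same number, so the order of mice on it is largely fixed by the marker sum. Of the 10 genes, 9 were lowest in mouse 4 and 1, Tnfaip2, in mouse 5, against 88.9% and 2.65% of all genes tested, and nothing about the 10 genes is read from these counts. Tnfrsf1b had 126, 128 and 129 CPM per 1000 CPM of macrophage markers in mice 4, 5 and 6, whereas Nfkbia had 136, 190 and 181. A gene whose CPM moves with the marker sum is flat on this scale by construction, and a relation to macrophage content was not tested. Tnf had 20.1, 20.9 and 25.4, highest in mouse 6, and Tnfaip2 had 192, 185 and 220.2. Tnfrsf1a had 86.5, 132 and 99.2 on this scale. It was 1 of 6 genes of the 10 that were highest in mouse 5, against 83.5% of all genes tested. The other 4 were highest in mouse 6, against 12.9%.

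**Figure D3:**
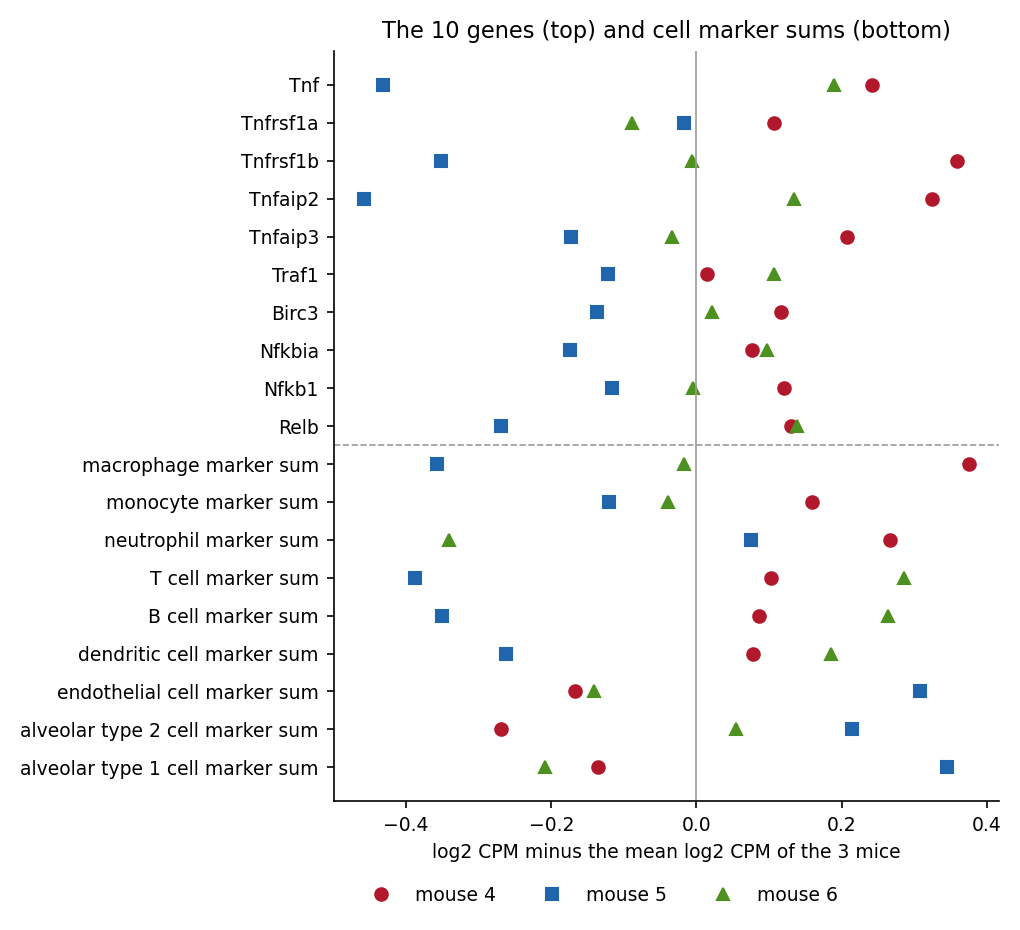
log2 CPM of each gene (top) and of each summed marker list (bottom) minus its own mean over mice 4, 5 and 6, with 1 point per mouse. Mouse 5 lies left of the other mice for 9 of the 10 genes and for the macrophage, monocyte, T cell, B cell and dendritic cell sums. It lies right of them for the endothelial and both alveolar epithelial sums.

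All 10 genes varied between mice by more than counting noise, as did 63.1% of the 17636 genes tested (edgeR Poisson goodness of fit, adjusted p below 0.05). Genes with many counts pass this test with small differences, and all 10 had at least 975 counts in every mouse. Without mouse 4 all 10 still passed, as did 7596 of 17749 genes tested. Without mouse 6 all 10 passed too, as did 9089 of 18082. Without mouse 5, 7 of the 10 passed, and Tnf, Nfkbia and Relb did not, against 38.9% of genes passing in the remaining pair.

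None of the 10 varied more than genes of like abundance after adjustment. edgeR's quasi-likelihood test of spread against the trend called 0 of 10 and 0 of 17636 genes (0% called). At an unadjusted p below 0.05 it took 2 of the 10, Tnf and Tnfaip2, and 867 of all genes (4.92%). In edgeR's test both had an adjusted p = 0.955. DESeq2 dispersions gave 273 calls among all genes and 0 among the 10. The spread of Tnf was 8.40 times the trend, that of Tnfaip2 7.34 times and that of Tnfrsf1b 6.61 times. That of Tnfrsf1a was 0.549 times the trend. In the order named, these ratios lay above those of 96.2%, 95.3%, 94.4% and 38.3% of all genes tested.

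**Figure D4:**
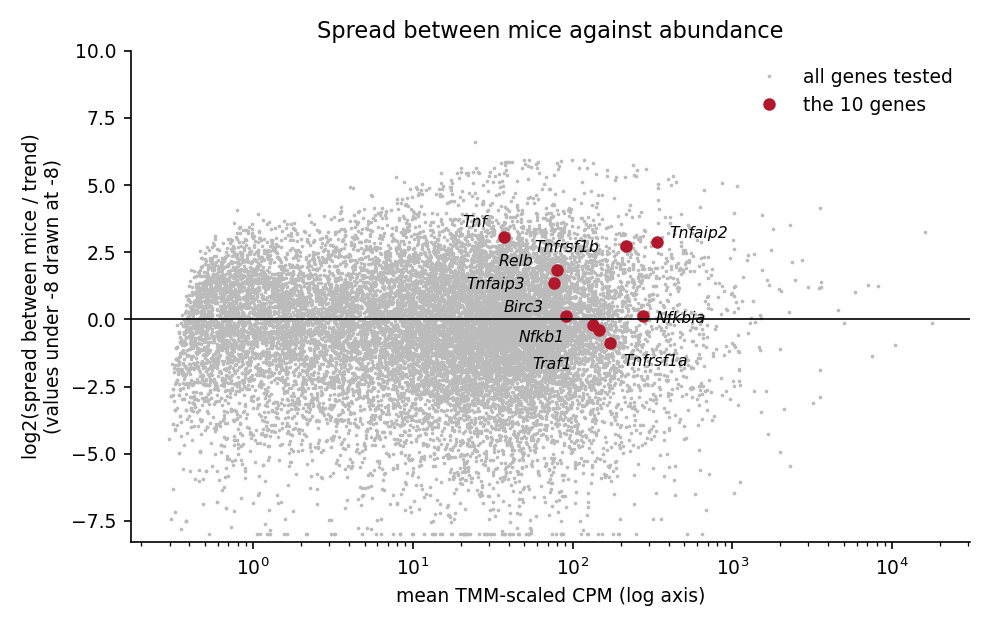
Ratio of each gene's spread between mice to the trend for its abundance (log2, the lowest values drawn at the lower limit) against mean CPM (log axis), for all 17636 genes tested (grey) and the 10 genes (red). Tnf, Tnfaip2 and Tnfrsf1b lie 2.72 to 3.07 log2 units above the trend, inside the cloud of all genes, and Tnfrsf1a lies at −0.86.

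The other genes of the pathway were nearly all expressed. Of 83 genes in 9 lists, 78 reached 1 CPM in every mouse, against 86.2% of all genes tested. Of 80 that could be tested, 69 varied by more than counting noise, 57 were lowest in mouse 5 and 0 were called above the trend. Of all genes tested, 63.1%, 36.8% and 0% did so. The median range of these pathway genes, highest over lowest mouse, was 1.24-fold, the same as the 1.24-fold of all genes tested. That of the 10 genes was 1.25-fold.

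Of 4 genes of TNF shedding and its control, the highest per kilobase was Timp3, whose product inhibits ADAM17 and so the release of TNF, at 50.1 ± 9.16 CPM per kb (SD, n = 3). Rhbdf2 (iRhom2), which carries ADAM17 to the cell surface, had 23.1 ± 2.37 CPM per kb and Adam17 16.2 ± 2.67. Timp3 had 343, 490 and 391 CPM in mice 4, 5 and 6, highest in mouse 5, as were 36.4% of all genes tested. Tnf was lowest in that mouse, and a relation between the 2 transcripts was not tested.

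All 15 genes of the receptor complex reached 1 CPM in every mouse, against 86.2% of all genes tested. Of the 15, 13 varied beyond counting noise, against 63.1% of all genes tested. Rbck1 (HOIL-1) and Sharpin, which are partners in the linear ubiquitin ligase, had 34.5 ± 2.58 and 20.2 ± 1.91 CPM per kb, Tab2, an adaptor of the kinase TAK1, 22.7 ± 0.748 and Casp8, the initiator caspase, 21.5 ± 1.18. Per kilobase of exon, the 5 genes of the IκB kinase complex and the noncanonical branch were led by Chuk (IKKα) at 11.0 ± 0.513 CPM per kb. Without division by length Ikbkb was higher, at a mean of 126.5 CPM against 55.8 CPM for Chuk. The longest transcript was not tried for the order within any list outside the 10 genes. The 4 death effectors lay between 5.66 and 9.76 CPM per kb, led by Mlkl, the pore former of necroptosis.

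The remaining NF-κB and IκB genes were lowest in mouse 5 throughout, 3 of 3 and 5 of 5, against 36.8% of all genes tested. Rela led the subunits at 50.1 ± 3.22 CPM per kb, ahead of Nfkb2 at 28.7 ± 5.04 (SD, n = 3), the partner of RelB. Bcl3, an atypical IκB, led the inhibitors at 43.4 ± 8.81 CPM per kb, with 127, 83.8 and 112 CPM in mice 4, 5 and 6. Of 10 further negative regulators, Zfp36 led at 48.1 ± 6.53 CPM per kb, followed by Tnip1, a partner of A20, at 24.8 ± 4.25. Of these 10, 6 were lowest in mouse 5, against 36.8% of all genes tested.

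TNF-inducible genes outside the 10 spanned a wide range. Ccl5, a chemokine for T cells, reached 500 ± 214 CPM per kb (SD, n = 3) with 712, 325 and 402 CPM in mice 4, 5 and 6. Lcn2, an iron-trapping protein, had 447 ± 92.1 CPM per kb, and Icam1, the adhesion molecule, 125 ± 5.61. Ier3, an early survival gene, had 108 ± 26.7 CPM per kb and was highest in mouse 5. Of the 21, 20 reached 1 CPM in every mouse, 18 varied beyond counting noise and 14 were lowest in mouse 5. Of all genes tested, 86.2% reached 1 CPM in every mouse, 63.1% varied beyond counting noise and 36.8% were lowest in mouse 5. The exception to detection was Sele, the endothelial selectin, with 13, 24 and 24 counts.

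Beside 12 other inflammatory cytokine genes, Tnf stood near Il1b and above the rest per kilobase of exon. Tnf had 26.2, 16.45 and 25.3 CPM per kb in mice 4, 5 and 6. Il1b, the other classical macrophage cytokine, had 24.1 ± 2.35 CPM per kb (SD, n = 3), and Tnf had 0.934 ± 0.156 times its level, higher in 1 of 3 mice. Tnf was above the other 11 genes in 3 of 3 mice, by 1.94 ± 0.355 times for Csf2, 1.95 ± 0.290 times for Il18 and 2.12 ± 0.271 times for Il1a. It was 3.14 ± 0.431 times the level of Ifng, the Th1 cytokine, and 37.5 ± 12.4 times that of Il6, a pair named after their values were seen. Without division by length Il1b was above Tnf in each mouse, at 50.4, 41.5 and 45.8 CPM in mice 4, 5 and 6. The other 11 genes stayed below Tnf. The longest transcript was not tried for these genes.

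**Figure D5:**
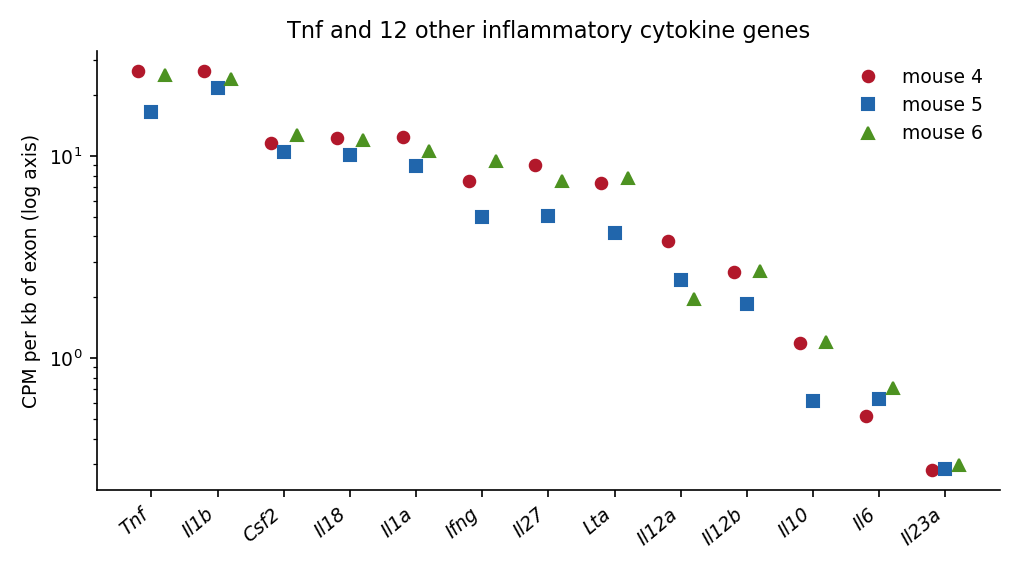
CPM per kb of exon (log axis) of Tnf and 12 other cytokine genes in mice 4, 5 and 6. Tnf and Il1b lie at the top and overlap, and the other 11 genes lie below Tnf in each mouse.

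The 2 relatives of Tnf beside it on chromosome 17 were also low in mouse 5. Lta, which encodes lymphotoxin α and lies 1157 bases away, had 10.2, 5.72 and 10.8 CPM in mice 4, 5 and 6. Ltb, which encodes lymphotoxin β and lies 3060 bases away on the other side, had 123, 88.9 and 149 CPM. Neither was called above the trend after adjustment. Ltb led the TNF superfamily ligands per kilobase, at 79.4 ± 19.9 CPM per kb (SD, n = 3), ahead of Tnfsf12 (TWEAK) at 31.6 ± 4.31 and Tnfsf10 (TRAIL) at 27.7 ± 1.35. Of the 16 ligands, 12 reached 1 CPM in every mouse, against 86.2% of all genes tested. Of the 13 tested, 10 were lowest in mouse 5, against 36.8% of all genes tested.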

How the data were processed

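Counts of 3 whole-lung RNA-seq libraries, 1 per mouse and 1 labelled group, were used. Total RNA came from a Direct-zol extraction and went into Nugen mRNA libraries, per the labels' protocols. Tools listed, without roles, are STAR 2.5.2a, Trim Galore 0.6.2 and bcl2fastq 2.17, with build mm10, per the submitters' processing notes. How reads were counted, on which annotation and whether by strand, is not given in the sources used here. The authors deposited whole-number counts for each Ensembl identifier, without normalization. GENCODE M21 gave symbols, coordinates and exon lengths for 99.8% of identifiers. Coordinates are 1-based.

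CPM used library totals times TMM factors (0.983, 1.01 and 1.00). Logs were taken as log2(CPM per kb + 0.5), with kb of the union of exons. filterByExpr kept 17636 genes, all 10 members among them. Spread between mice was tested with an intercept alone in edgeR 4.0.16 (R 4.3.3), as Poisson goodness of fit on 2 degrees of freedom, and as quasi-likelihood dispersion against its trend by an upper-tail F test (3.88 prior degrees of freedom, robust). p-values were Benjamini-Hochberg adjusted over all genes tested, with a threshold of 0.05, and both tests were tried on simulated data. They measure spread among these 3 mice, which the labels describe as separate animals. DESeq2 1.42.0 was an alternative. Within-mouse differences used exact two-sided sign-flip tests. Promoter windows are RefSeq's (GRCm38.p6). The 3′ untranslated regions are of the GENCODE transcript with the longest coding sequence.

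The members and lists were chosen with earlier results of these data known. Genes named are the members, up to 4 leading genes per list, the partners in the differences (Birc2 among them), and some chosen after values were seen (Lta, Ifng, Il6, Il23a, Sele). Other scalings, filters, lengths, pseudocounts and leaving out each mouse were alternatives.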

Additional observations from a re-analysis of the deposited data

How the results depend on the processing

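The differences between genes and the member counts kept their direction and call except as follows. Tnfrsf1b minus Tnfrsf1a was 0.29 with no division by length, and −0.39 to −0.10 with each mouse left out. Birc3 minus Birc2 ranged from −0.02 to 0.05 with each mouse left out, a change of sign around 0. Nfkbia minus Nfkbib ranged from 2.70 to 2.74 and Relb minus Rela from −1.34 to −1.20 with each mouse left out. The median log2 level of the 10 genes was 5.24 per kb of the longest transcript and 7.14 with no division by length, and 4.35 to 4.61 with each mouse left out.

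Genes varying above counting noise numbered 11123, and 7005 to 9089 with each mouse left out (7005 without mouse 5). Members so called numbered 7 to 10. Genes varying above the trend numbered 0, against 629 with no filter, 273 with DESeq2 dispersions and 0 to 13 with each mouse left out (13 without mouse 4); none was a member. Members lowest in mouse 5 numbered 9 under the 3 library scalings, 1 per macrophage marker sum and 0 per T cell marker sum, 2 scales chosen after seeing the data on which 2.65% and 2.35% of all genes tested were lowest in mouse 5, so both counts follow from the scale. The cause of the other changes was not tested.

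No paired analysis was possible because all samples belong to 1 group. With 3 mice no exact sign-flip test can go below p = 0.25, and low counts limit Sele, Il6 and Il23a.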
